A study of Saccharomyces cerevisiae with 12 samples.

Results

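The cytosolic ribosomal protein genes of budding yeast encode the protein components of the 80S ribosome outside mitochondria. They were taken from the deposited tables by gene name (RPL, RPS or RPP, a number and, for duplicated genes, the letter A or B), which selected 138 of 7126 genes. RPP1 (YHR062C) was caught by the name pattern but encodes a subunit of ribonuclease P. The RefSeq annotation gives it as an RNA-binding RNA processing protein, so it is described apart. The other 137 genes encode 81 proteins of the large subunit, the stalk proteins included, and 56 of the small subunit. They are spread over 15 chromosomes, and 59 pairs of paralogs account for 118 of them, leaving 19 single-copy genes.

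The cells were BY4741, a MATa laboratory strain, and each culture carried a plasmid: pBY011-YOX1, in which a galactose-inducible GAL promoter drives YOX1, or the empty pBY011 control vector. YOX1 encodes a homeodomain repressor that works with Mcm1 on cell cycle genes. Cultures of both kinds grew in raffinose medium lacking uracil and were sampled before treatment (0 h) and at 2 h and 4 h after galactose (2%) and the ribonucleotide reductase inhibitor hydroxyurea (HU, 200 mM) were added together. Each of the 6 groups, YOX1 vector or control vector at each of the 3 times, had 2 libraries from independent biological replicates. Galactose and HU reached both kinds of culture at the same moment, so the time comparisons measure the sugar, the drug and the hours in culture jointly, and these cannot be told apart.

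Ribosomal proteins are among the most heavily transcribed yeast genes. Their promoters are bound by Rap1, Fhl1 and the coactivator Ifh1, nutrient signalling through TORC1 and protein kinase A sets their output, and many stresses lower their transcripts as part of a common stress response. Most were kept in duplicate after an ancient genome duplication, many hold an intron (89 of the 137 have one in the coding sequence, and 48 do not), and the 2 copies of a pair usually encode identical or nearly identical proteins.

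Values are FPKM, fragment counts adjusted for transcript length and for the mapped fragments of the library, scaled so that the libraries share a median ratio. The depth implied by the deposited confidence intervals was 9660000 to 18060000 fragments per library, and replicates correlated across genes with Pearson's r of 0.924 to 0.972. The induced gene followed its label: YOX1 stood at 85.4 and 88.4 FPKM with the YOX1 vector against 30.4 and 29.0 FPKM with the control vector at 0 h. It stood at 3794 and 3178 against 30.9 and 37.1 FPKM at 2 h, and at 2706 and 2510 against 42.9 and 43.7 FPKM at 4 h (plasmid and chromosomal transcripts are not separated). All 6 listed MATa marker genes averaged above 1 FPKM and were tested. At 0 h MFA1, the a-factor gene, averaged 980 FPKM with the YOX1 vector and 1168 FPKM with the control vector, and the one MATalpha marker listed in the files, STE3, averaged 3.03 and 2.99 FPKM in the same order. 1 library stood apart among the ribosomal protein genes. In YOX1 vector 0 h replicate 1 the log2 differences from the untreated control libraries had an interquartile range of 0.27 over the 118 genes without overlap, against 0.08 in YOX1 vector 0 h replicate 2, so each result that uses it is also given without it where that matters. Bulk RNA cannot tell fewer cells from less RNA per cell, and FPKM are relative to all measured RNA.

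Before treatment, ribosomal protein transcripts made up 19.1% and 19.6% of all FPKM in the YOX1 vector libraries and 19.7% and 19.3% in the control vector libraries. At 2 h they made up 14.9% and 14.5% with the YOX1 vector and 15.3% and 14.6% with the control vector, and at 4 h 14.2% and 13.7% with the YOX1 vector and 13.9% and 14.1% with the control vector. The share was thus below every 0 h value in all 8 treated libraries, and the libraries of the 2 vectors overlapped at each time.

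The most abundant members in the untreated control libraries were RPS30A, which encodes a small subunit protein, with 8201 and 8470 FPKM, RPL41A, with 7284 and 9387 FPKM, and RPS31, which is translated as a fusion with ubiquitin, with 8018 and 7609 FPKM. The libraries of RPL41A overlapped those of the other pair, while both RPS30A libraries lay above both RPS31 libraries. The coding sequence of RPL41A is 78 bases long, and the deposited intervals imply only 104 and 148 fragments behind its 2 values. RPL41A and RPL41B encode the smallest ribosomal protein, and their coding sequences are shown because they differ at a single base (in capitals), so that most reads fit both copies and the split between them is uncertain (chrIV:130407-130484 and chrIV:221724-221801, both on the minus strand, RefSeq R64, the same coordinates as sacCer3).
RPL41A: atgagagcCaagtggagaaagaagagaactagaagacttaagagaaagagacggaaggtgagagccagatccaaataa
RPL41B: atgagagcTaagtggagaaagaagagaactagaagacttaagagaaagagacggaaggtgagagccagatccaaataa
Among the 118 genes that overlap no other annotated gene, the lowest were RPL22B with 128 and 105 FPKM, RPS9A with 203 and 197 FPKM and RPL15B with 221 and 192 FPKM in the untreated control libraries. RPL22B lay below the other pair in both libraries, while RPS9A and RPL15B overlapped. Over all 137 genes the lowest were RPL43A, RPL22A and RPL36B, each of which shares more than 90% of its coding bases with another annotated gene.

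19 of the 137 genes overlap 20 other annotated features, and 16 of those features share bases with the member's coding exons. Most are dubious open reading frames on the opposite strand, and the library kit does not mark strand, so a read over such bases could carry either name. For 6 members more than 80% of the coding bases are shared. RPL39, a small basic protein at the exit of the nascent peptide tunnel, is the clearest example: 150 of its 156 coding bases (96.2%) lie inside BUD19, and only the 6 bases of its first coding exon, in capitals here, do not (chrX:75933-76474, plus strand, RefSeq R64).
RPL39: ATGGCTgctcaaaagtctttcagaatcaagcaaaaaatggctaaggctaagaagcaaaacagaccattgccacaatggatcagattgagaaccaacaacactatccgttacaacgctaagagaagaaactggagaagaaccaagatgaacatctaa
RPL39 was listed at 0 or below 0.001 FPKM in all 6 YOX1 vector libraries. In the control vector libraries it was listed at 20.0 and 18.2 FPKM at 0 h, 4.36 and 5.22 FPKM at 2 h and 14.9 and 14.6 FPKM at 4 h. The deposited intervals imply no more than 3.20 fragments behind any of these values, so the whole difference rests on a few fragments per library. BUD19 spans 309 bases, which include these 150. It had 2459.5 and 2256 FPKM with the YOX1 vector and 1975 and 2135 FPKM with the control vector at 0 h. At 2 h it had 1674 and 1631 FPKM with the YOX1 vector and 1617 and 1669 FPKM with the control vector, and at 4 h 1758 and 1829 FPKM with the YOX1 vector and 1955 and 1705 FPKM with the control vector. RPL39 passed the test for a lower level with the YOX1 vector at each time (limma, Benjamini-Hochberg adjusted p = 0.000152 at 0 h, 0.000536 at 2 h and 2.07e-05 at 4 h), whereas BUD19 did not (BUD19 adjusted p = 0.641 at 0 h, 0.991 at 2 h and 0.904 at 4 h, limma). No fold is given for RPL39 between the vectors because one side is at 0.

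The same layout recurred at other loci. RPL43A was at 0 or below 0.001 FPKM in all 12 libraries, while OPI11, which covers 99.3% of its coding bases, had 1805 to 2686 FPKM. RPL22A, covered to 96.7%, had at most 1.87 FPKM in any library, while BUD28 had 1362 to 2299 FPKM. RPL36B had 3.95 to 10.5 FPKM and RPL28, a single-copy gene known for its cycloheximide-resistant alleles, 32.4 to 66.3 FPKM, each far below its partner. RPL43A and RPL22A averaged under 1 FPKM and were not tested, which leaves 135 tested genes. Of the 16 partner features that share exon bases, 15 were tested. Of these, 11 fell over 2 h and 11 over 4 h in YOX1 vector cultures, and 11 and 9 in control vector cultures, where 22.2% and 27.0% (YOX1 vector) and 19.3% and 26.0% (control vector) of all genes tested were called lower.

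**Figure D1:**
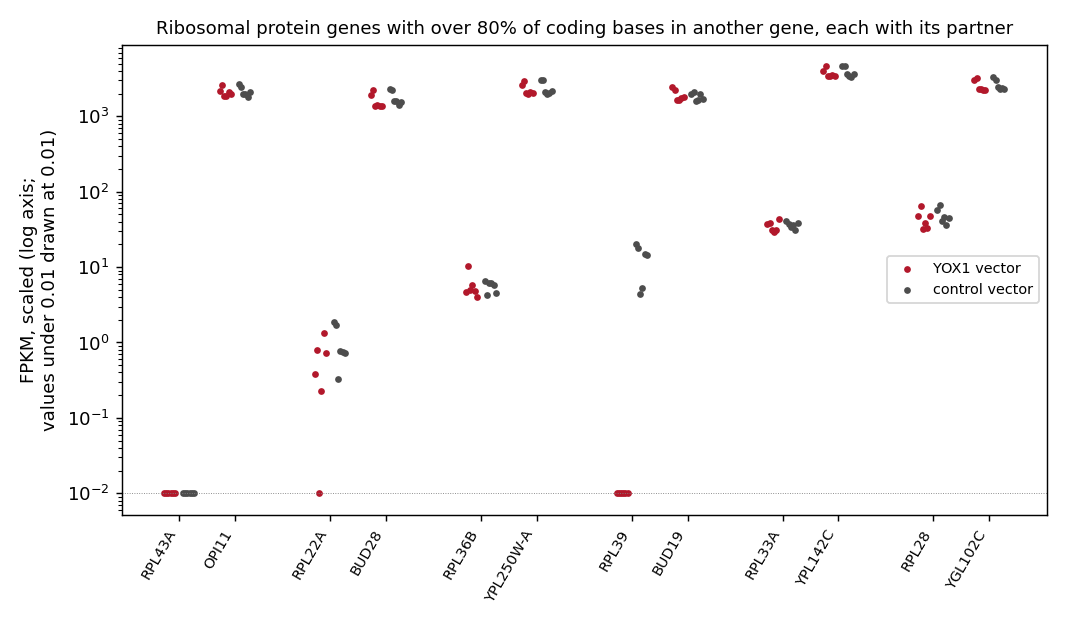
Scaled FPKM on a log axis of the 6 ribosomal protein genes with more than 80% of coding bases inside another gene, each beside its partner, with 6 points for the YOX1 vector (left) and 6 for the control vector (right) in time order. Partners sit above 1000 FPKM, members lie far lower, and RPL39 is at the floor in all 6 YOX1 vector libraries and above it in all 6 control vector libraries.

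Adding galactose and HU was followed by a broad, shallow decrease across the family. In YOX1 vector cultures, 115 of 135 tested genes had fallen after 2 h and 2 had risen (RPL22B and RPS28B), where 22.2% of all 6887 genes tested were called lower and 21.6% higher. Neither of these rises passed in every fit that left out a single library. After 4 h, 109 had fallen and 1 had risen (RPL22B), against 27.0% and 26.4% of all genes. In control vector cultures, 114 had fallen after 2 h and 0 had risen (1 at an unadjusted p under 0.05), against 19.3% and 18.4% of all genes. After 4 h, 109 had fallen and 0 had risen (0 at an unadjusted p under 0.05), against 26.0% and 25.1%. All of these calls are from limma on log2(FPKM + 1) at a Benjamini-Hochberg adjusted p under 0.05.

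For the YOX1 vector the median log2 change of the tested genes was -0.46 after 2 h and -0.50 after 4 h, or 0.727 and 0.709 times the 0 h level. For the control vector it was -0.45 and -0.49, or 0.732 and 0.714 times. The median over all genes tested stayed between 0.00 and 0.01 in these comparisons. Quantile normalization, which ties the top of every library to the same values, kept the direction with smaller medians of -0.28 and -0.33 for the YOX1 vector and -0.29 and -0.37 for the control vector. Without YOX1 vector 0 h replicate 1, the YOX1 vector medians were -0.51 at 2 h and -0.55 at 4 h. The decrease was therefore as large without the library that stood apart. Among the 118 genes without overlap, 104 (2 h) and 99 (4 h) fell with the YOX1 vector, and 102 and 98 with the control vector.

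**Figure D2:**
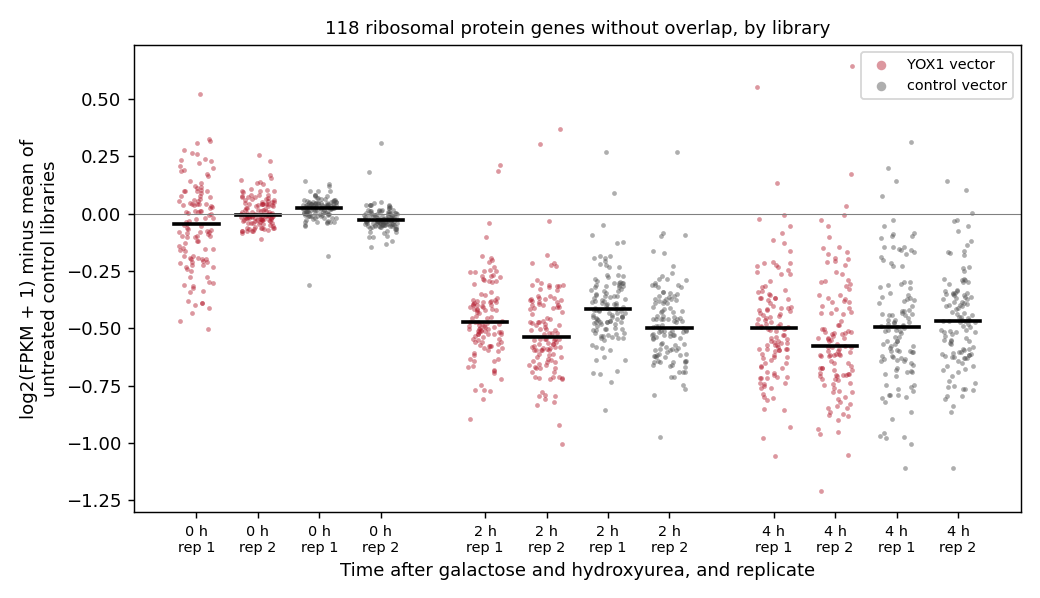
Each point is 1 of the 118 ribosomal protein genes without overlap in 1 library, as log2(FPKM + 1) minus the mean of the untreated control libraries, and black bars are medians. Medians lie between -0.05 and 0.03 at 0 h and between -0.42 and -0.58 at 2 h and 4 h, and the spread of YOX1 vector 0 h replicate 1 is wider than that of the other 0 h libraries.

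108 genes were called lower with both vectors at 2 h and 96 at 4 h, and 94 were called lower in all 4 comparisons and 128 in at least one. Of all genes tested, 16.3% were called lower with both vectors at 2 h and 20.4% at 4 h, 13.8% in all 4 comparisons and 35.2% in at least one. The 7 genes called lower in none were RPL10, RPL22B, RPL33A, RPL36B, RPS27A, RPS28B and RPS30A. RPL10, RPL33A, RPL36B and RPS27A share exon bases with another gene, so their own levels are uncertain. RPS30A stayed among the most abundant members, with 7631 and 8034 FPKM at 4 h with the YOX1 vector and 6083 and 8043 FPKM with the control vector.

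RPL9A showed the deepest decrease at 4 h with either vector. RPL9 sits near the base of the stalk of the large subunit. RPL9A had 1486 and 1568 FPKM with the YOX1 vector and 1613 and 1530.3 FPKM with the control vector at 0 h. At 2 h it had 845 and 783 FPKM with the YOX1 vector and 866 and 799 FPKM with the control vector, and at 4 h 756 and 679 FPKM with the YOX1 vector and 727 and 729 FPKM with the control vector. All treated libraries lay well below all untreated ones, and the vectors overlapped at each time. The log2 change over 4 h was -1.09 (SE 0.07, limma adjusted p = 1.45e-05) with the YOX1 vector and -1.11 (SE 0.07, limma adjusted p = 1.48e-05) with the control vector.

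Next to RPL9A over 4 h with the YOX1 vector came RPS2 (-0.94, SE 0.09), a small subunit protein of the decoding region, and RPL42B (-0.94, SE 0.17), and with the control vector RPL4A (-0.92, SE 0.10) and RPS12 (-0.91, SE 0.09). RPS2 shares 30.2% of its coding bases with another annotated gene, so its level carries that uncertainty. RPL42B rests in part on the library that stands apart, where it had 4644 FPKM against 3354 FPKM in the other YOX1 vector 0 h library, and without that library its change was -0.70. Over 2 h with the YOX1 vector, RPL9A (-0.91), RPL42B (-0.87) and RPL41B (-0.84) lay lowest, and RPL41B no longer passed without YOX1 vector 0 h replicate 1 (-0.70, limma adjusted p = 0.123). Over 2 h with the control vector, RPL39 (-1.80, on a few fragments), RPL9A (-0.92) and RPP0 (-0.76) lay lowest.

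The P stalk of the large subunit, which recruits elongation factors to the ribosome, is built from RPP0 and the acidic proteins RPP1A, RPP1B, RPP2A and RPP2B. RPP0 had 2660 and 2786.5 FPKM with the YOX1 vector and 3016 and 2897 FPKM with the control vector at 0 h, and 1512 and 1399 FPKM with the YOX1 vector and 1651 and 1632 FPKM with the control vector at 4 h. Its log2 change over 4 h was -0.90 (SE 0.07) with the YOX1 vector and -0.85 (SE 0.07) with the control vector, and both passed (limma adjusted p = 3.23e-05 and 4.71e-05). 47.8% of its coding bases are shared with a dubious gene, so the level carries that uncertainty. The acidic proteins changed over 4 h by -0.67 (RPP1A), -0.29 (RPP1B), -0.53 (RPP2A) and -0.84 (RPP2B) with the YOX1 vector and by -0.60, -0.49, -0.50 and -0.70 in the same order with the control vector, and all 8 values passed. RPP1B was the exception at 2 h, where its change of -0.28 with the YOX1 vector missed the threshold (limma adjusted p = 0.0573).

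3 genes encode ubiquitin fused to a ribosomal protein, RPL40A, RPL40B and RPS31, and they supply free ubiquitin as well as the ribosomal subunit protein. RPS31 had 8244 and 8039 FPKM with the YOX1 vector and 8018 and 7609 FPKM with the control vector at 0 h, and 4910 and 4577 FPKM with the YOX1 vector and 5230 and 4931 FPKM with the control vector at 4 h. On the log2 scale it changed by -0.78 with the YOX1 vector and by -0.62 with the control vector (SE 0.07 for both, both passing). RPL40A changed by -0.45 with the YOX1 vector and -0.56 with the control vector, and RPL40B by -0.69 and -0.74 (SE 0.06 for all), and all passed.

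Large and small subunit genes had similar medians. Over 4 h the medians were -0.53 (79 tested large subunit genes) and -0.49 (56 small subunit genes) with the YOX1 vector, and -0.48 and -0.50 with the control vector. The 19 single-copy genes had medians of -0.67 with the YOX1 vector and -0.68 with the control vector, and the 116 tested duplicated genes -0.49 and -0.48. Genes without overlap and without a coding intron (42) had medians of -0.61 with the YOX1 vector and -0.59 with the control vector, and those with one (76) -0.47 with the YOX1 vector and -0.46 with the control vector. These subgroup medians are descriptions, and their differences were not tested. Among single-copy genes the largest decreases over 4 h with the control vector were in RPS12, RPL5 (-0.88) and RPS2 (-0.86). RPL5 carries the 5S ribosomal RNA, and RPS2 shares coding bases with another gene. RPL29 changed by only -0.16 (limma adjusted p = 0.234).

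**Figure D3:**
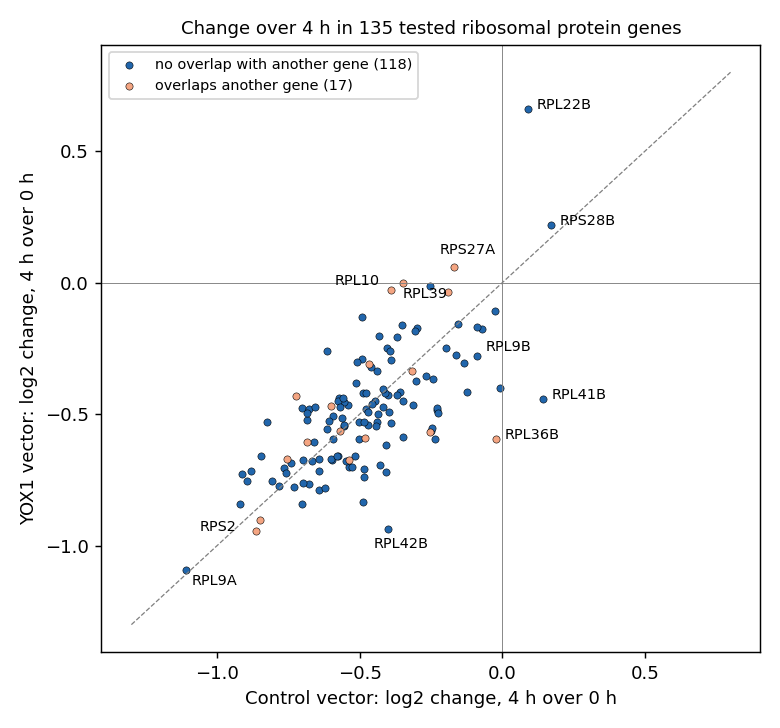
Log2 change over 4 h of the 135 tested ribosomal protein genes with the YOX1 vector (vertical axis) against the control vector (horizontal axis), with the line of equal change dashed. The interquartile range lies between -0.67 and -0.38 with the YOX1 vector and between -0.61 and -0.35 with the control vector, and RPL9A is lowest on both. RPL22B lies furthest above the dashed line, at 0.66 with the YOX1 vector and 0.09 with the control vector.

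RPL22B was the one member that passed the test upward between the vectors. It encodes one form of RPL22, a nonessential large subunit protein, and lies at chrVI:64243-64932 on the minus strand with 1 coding intron and no overlapping gene. RPL22B had 109.7 and 113 FPKM with the YOX1 vector and 128 and 105 FPKM with the control vector at 0 h. At 2 h it had 133 and 151 FPKM with the YOX1 vector and 109 and 96.8 FPKM with the control vector, and at 4 h 171 and 182 FPKM with the YOX1 vector and 123 and 125 FPKM with the control vector. The vectors overlapped at 0 h and were separate at 2 h and 4 h, and the YOX1 vector libraries were higher at 4 h than at 2 h. The deposited intervals imply 245 to 666 fragments behind each value.

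The log2 difference of RPL22B, YOX1 vector over control vector, was 0.46 (SE 0.11, limma adjusted p = 0.0921) at 2 h and 0.51 (SE 0.11, limma adjusted p = 0.0299) at 4 h. Over 4 h its change was 0.66 (SE 0.11, limma adjusted p = 0.00112) with the YOX1 vector and 0.09 (SE 0.11, limma adjusted p = 0.503) with the control vector. The difference between these changes was 0.57 (SE 0.15) and did not pass over all genes (limma adjusted p = 0.124). The increase over 4 h with the YOX1 vector still passed without any one of its 4 libraries (limma adjusted p 0.00548 to 0.0103), whereas the difference from the control vector at 4 h no longer passed when any one of its 4 libraries was left out (0.0955 to 0.158).

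RPL22A, the other copy, was listed near 0 and was not tested, and 96.7% of its coding bases lie in BUD28. BUD28 had 1388 and 1385 FPKM with the YOX1 vector and 1432 and 1556 FPKM with the control vector at 4 h, and its log2 change over 4 h was -0.59 with the YOX1 vector and -0.60 with the control vector (SE 0.08 for both, limma adjusted p = 0.000415 and 0.000391).

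The 500 bases before the RPL22B start codon were searched on both strands for a Rap1-type motif (CCCNTACA) and for the core that many homeodomain proteins bind (TAATTA). Windows around each match are shown on the coding strand because RPL22B is the member called higher with the YOX1 vector at 4 h, a call that was lost without any one of its 4 libraries, and capitals mark the match (RefSeq R64, minus strand, chrVI:65158-65187, chrVI:65052-65079 and chrVI:65001-65028).
RPL22B Rap1-type window: ccatgtcaacaCCCGTACAtattcagagat
RPL22B first TAATTA window: caaaaaagagcTAATTAcctaaatgatt
RPL22B second TAATTA window: cgattaattgaTAATTAttgattttttt
A Rap1-type match was present in the window of 41 of the 137 ribosomal protein genes (29.9%) and of 243 of 6000 protein-coding genes (4.05%). TAATTA was present for 26 of 137 (19.0%) and for 1478 of 6000 (24.6%). A match is only a run of letters and shows no binding. Only exact matches to these letters were counted, so the lack of a match does not show that a binding site is absent. Among genes without overlap, the median change over 4 h with the YOX1 vector was -0.45 for the 34 with a Rap1-type match and -0.52 for the 84 without one, and with the control vector -0.44 and -0.49.

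Apart from RPL39 and RPL22B, no ribosomal protein gene passed the comparison of vectors at any time. At 0 h 1 gene was called lower (RPL39) and 0 higher (1 at an unadjusted p under 0.05), where 0.0145% of all genes were called in each direction. At 2 h 1 was lower (RPL39) and 0 higher (1 at an unadjusted p under 0.05), against 1.68% lower and 0.261% higher of all genes. At 4 h 1 was lower (RPL39) and 1 higher (RPL22B), against 4.31% and 1.92% of all genes. The median log2 difference over the 135 genes was -0.03 at 0 h, -0.04 at 2 h and -0.05 at 4 h, against -0.01, 0.00 and 0.01 over all genes, and no direction is given for the family because the medians at 2 h and 4 h became 0.01 and 0.02 with quantile normalization and that at 0 h became 0.01 without scaling.

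The next largest differences between vectors did not pass. At 0 h they were RPS15 (-0.31, SE 0.14) and RPL2B (-0.27, SE 0.15) on the low side and RPL36B (0.37, SE 0.32), RPL42B (0.29, SE 0.17) and RPL35A (0.19, SE 0.10) on the high side. At 2 h they were RPL28 (-0.30, SE 0.21) and RPL41B (-0.28, SE 0.25) on the low side and RPL33B (0.11, SE 0.08) and RPS7B (0.10, SE 0.06) on the high side. At 4 h they were RPL41B (-0.40, SE 0.25) and RPS25B (-0.28, SE 0.12) on the low side and RPL21A (0.22, SE 0.12) and RPS29A (0.22, SE 0.18) on the high side. The lowest adjusted p among these was 0.235 (limma). The 0 h values rest in part on YOX1 vector 0 h replicate 1, the library that stood apart. Without it the median difference of the 135 genes at 0 h was -0.0012.

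The difference between the changes of the 2 vectors asks the same question of the response itself. Over 2 h, 0 genes passed downward (0 at an unadjusted p under 0.05) and 1 upward (RPL39, at 0 in the YOX1 vector libraries, so that the value restates its control vector change), against 0.639% and 0.102% of all genes. Over 4 h, 0 passed in either direction (without adjustment, 3 negative and 1 positive at p under 0.05), against 1.96% and 0.523%. The most negative values over 4 h were RPL41B (-0.58, SE 0.35), RPL36B (-0.57, SE 0.45) and RPL42B (-0.54, SE 0.24), and after RPL22B the most positive were RPL10 (0.36, SE 0.23) and RPS29A (0.36, SE 0.25). Over 2 h they were RPL36B (-0.55, SE 0.45), RPL41B (-0.46, SE 0.35) and RPL42B (-0.37, SE 0.24) on the negative side and RPL22B (0.52, SE 0.15) and RPL17A (0.18, SE 0.17) on the positive side. All of these differences use YOX1 vector 0 h replicate 1, the library that stood apart. Without it the family median moved from -0.02 to -0.04 over 2 h and from -0.01 to -0.06 over 4 h.

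Paralogs were compared as the log2 ratio of the FPKM of A to that of B within each library, over the 50 pairs in which neither copy shares coding exon bases with another gene. A was the more abundant copy in all 12 libraries for 27 pairs and B for 18, and the order changed between libraries for 5 (RPL1, RPL20, RPL35, RPL41 and RPS29). The median absolute log2 ratio was 0.54, and 12 pairs differed by more than 2-fold in the mean over libraries. The SD of the ratio between replicates, pooled over pairs and groups, was 0.07, and the highest SD of a single pair in a group was 0.28 (RPL6, YOX1 vector at 0 h).

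RPL15, a large subunit protein, was the most unequal of these pairs. RPL15A had 2901 and 3094 FPKM with the YOX1 vector and 3157 and 2971 FPKM with the control vector at 0 h, while RPL15B had 195 and 208 FPKM and 221 and 192 FPKM in the same order. The mean ratio was 13.8-fold in favour of A. RPS9, which takes part in decoding accuracy, leaned the other way with B 8.57-fold above A. RPS14A exceeded RPS14B 5.13-fold, RPS28A exceeded RPS28B 4.86-fold and RPS26A exceeded RPS26B 3.52-fold. Over all 59 pairs the largest ratios belonged to RPL43, RPL22, RPL36, RPL33 and RPL15, and in the first 4 of these the low copy shares 88.0% to 99.3% of its coding bases with another annotated gene, so that no ratio is given for them.

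How far reads can separate 2 copies depends on how alike they are. Coding sequences of paralogs were 68.9% to 99.4% identical over the 59 pairs. In 7 of the 50 pairs at least 50% of 50-base windows of A occur unchanged in B, and the absolute log2 ratio of these 7 was 0.01 to 0.50 with a median of 0.15. In the 26 pairs that share fewer than 10% of such windows it was 0.08 to 3.10 with a median of 0.76. Reads that fit both copies can be split between them in the deposited values, so the ratios of the 7 pairs are uncertain.

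**Figure D4:**
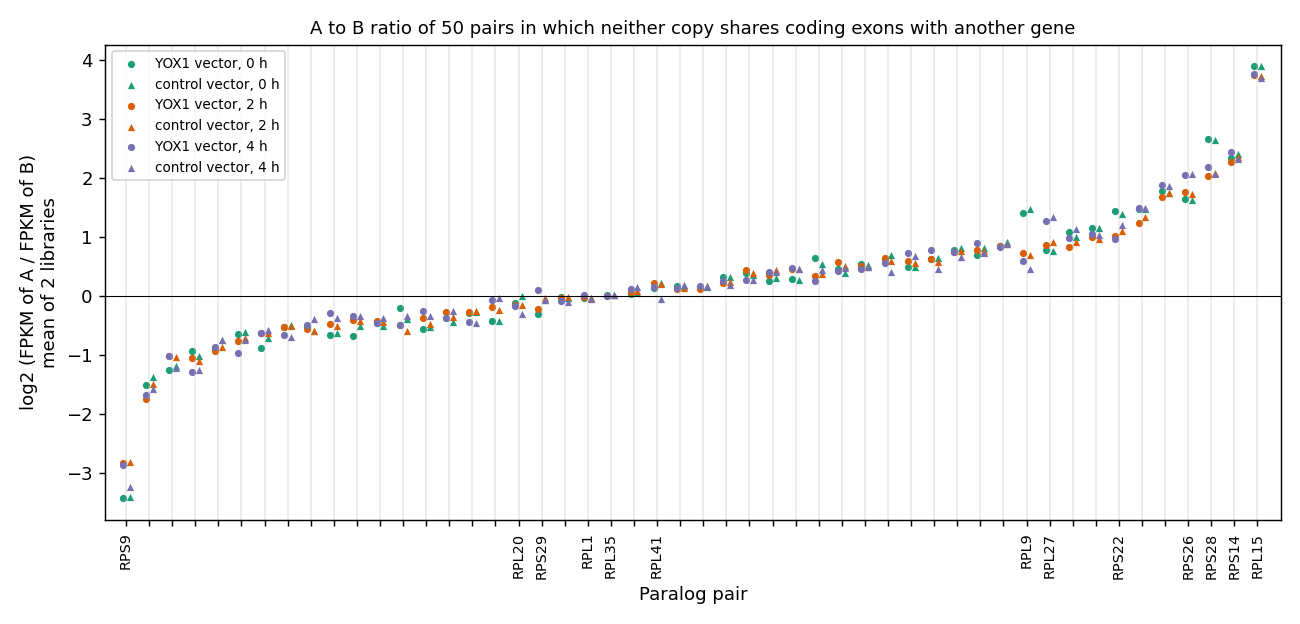
Log2 ratio of the FPKM of copy A to that of copy B for the 50 paralog pairs without exon overlap, ordered by their mean, with circles for the YOX1 vector and triangles for the control vector coloured by time, each the mean of 2 libraries, and names only at pairs that the text describes. Symbols of a pair lie close together compared with the range from RPS9 at the left to RPL15 at the right, and RPL9, RPS28, RPS9 and RPL27 show the widest spacing between times.

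Both copies fell in 42 (2 h) and 39 (4 h) of the 50 pairs with the YOX1 vector, and in 42 and 37 with the control vector. Both had a negative estimate in 48 or 49 of the 50 pairs in every comparison. The ratio of a pair moved little, with a median span of 0.23 between the highest and lowest group means, and 4 pairs spanned more than 0.5: RPL9 (1.02), RPS28 (0.63), RPS9 (0.61) and RPL27 (0.57). Next came RPS22 (0.48). In these pairs the estimates of the copies differed, and the difference between copies was not tested.

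In RPL9, B changed less than A. RPL9B had 571 and 584 FPKM with the YOX1 vector and 579 and 554 FPKM with the control vector at 0 h, 498 and 488 against 519 and 506 FPKM at 2 h, and 488 and 464 against 527 and 537 FPKM at 4 h. Its log2 change over 4 h was -0.28 (SE 0.05, limma adjusted p = 0.00149) with the YOX1 vector and -0.09 (SE 0.05, limma adjusted p = 0.147) with the control vector. The ratio of A to B was 1.40 (YOX1 vector) and 1.47 (control vector) on the log2 scale at 0 h, 0.72 and 0.70 at 2 h, and 0.59 and 0.45 at 4 h. The start of both coding sequences is shown, with differing bases in capitals, because the copies can be told apart by such bases (chrVII:227754-228329, minus strand, and chrXIV:499681-500256, plus strand, RefSeq R64, first 150 coding bases).
RPL9A: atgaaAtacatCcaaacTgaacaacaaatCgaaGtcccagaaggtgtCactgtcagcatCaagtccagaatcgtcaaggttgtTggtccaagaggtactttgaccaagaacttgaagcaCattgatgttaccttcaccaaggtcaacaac
RPL9B: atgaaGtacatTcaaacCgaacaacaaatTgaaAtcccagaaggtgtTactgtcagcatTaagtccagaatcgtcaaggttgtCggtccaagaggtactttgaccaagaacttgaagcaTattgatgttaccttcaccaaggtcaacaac

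In RPS28, a small subunit protein near the mRNA exit, the estimates of the copies had opposite signs. RPS28B had 816 and 917 FPKM with the YOX1 vector and 993 and 828 FPKM with the control vector at 0 h, 1050.0 and 1121 against 1093 and 1095 FPKM at 2 h, and 994 and 1023 against 1043 and 1001 FPKM at 4 h. The treated libraries lay above the untreated ones, though at the nearest point only by 994 against 993 FPKM. The log2 change over 2 h was 0.33 (SE 0.09, limma adjusted p = 0.0229) with the YOX1 vector, which passed, and 0.27 (SE 0.09, limma adjusted p = 0.0525) with the control vector, which did not. The first of these no longer passed without YOX1 vector 0 h replicate 1 (0.116) or YOX1 vector 2 h replicate 2 (0.124). Over 4 h neither vector passed for RPS28B, at 0.22 (SE 0.09, limma adjusted p = 0.0779) with the YOX1 vector and 0.17 (SE 0.09, limma adjusted p = 0.160) with the control vector. RPS28A had 5088 and 5925 FPKM with the YOX1 vector and 6042 and 5267 FPKM with the control vector at 0 h, and 4266 and 4942 against 4154 and 4445 FPKM at 4 h. Its change over 2 h was -0.30 (SE 0.12, limma adjusted p = 0.0738) with the YOX1 vector and -0.28 (SE 0.12, limma adjusted p = 0.102) with the control vector, and over 4 h -0.26 (SE 0.12, limma adjusted p = 0.104) with the YOX1 vector and -0.39 (SE 0.12, limma adjusted p = 0.0257) with the control vector. The complete coding sequences differ at 24 of 204 bases, in capitals, and share no 50-base window (chrXV:648804-649007, minus strand, and chrXII:673131-673334, plus strand, RefSeq R64).
RPS28A: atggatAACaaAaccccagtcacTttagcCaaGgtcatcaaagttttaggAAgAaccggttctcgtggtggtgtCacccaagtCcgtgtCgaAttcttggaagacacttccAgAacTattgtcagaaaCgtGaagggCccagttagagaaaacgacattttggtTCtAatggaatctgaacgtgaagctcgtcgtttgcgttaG
RPS28B: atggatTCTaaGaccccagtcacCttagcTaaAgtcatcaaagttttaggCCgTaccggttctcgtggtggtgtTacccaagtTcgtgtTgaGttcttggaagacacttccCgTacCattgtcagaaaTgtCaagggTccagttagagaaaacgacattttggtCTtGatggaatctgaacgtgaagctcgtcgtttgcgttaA

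RPS9A, the minor copy, changed less than RPS9B at 2 h. Its log2 change over 2 h was -0.08 (limma adjusted p = 0.483) with the YOX1 vector and -0.00 (limma adjusted p = 0.998) with the control vector, while RPS9B changed by -0.67 (limma adjusted p = 0.00171) and -0.59 (limma adjusted p = 0.00375). At 4 h RPS9A passed with the control vector (-0.31, limma adjusted p = 0.0155) and not with the YOX1 vector (-0.18, limma adjusted p = 0.0952). RPL27A and RPL27B parted at 4 h, where A changed by -0.18 with the YOX1 vector and -0.07 with the control vector, and B by -0.67 and -0.64 (SE 0.06 for A and 0.05 for B). RPL27A was lower at 2 h, by -0.40 with the YOX1 vector and -0.26 with the control vector, both passing.

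**Figure D5:**
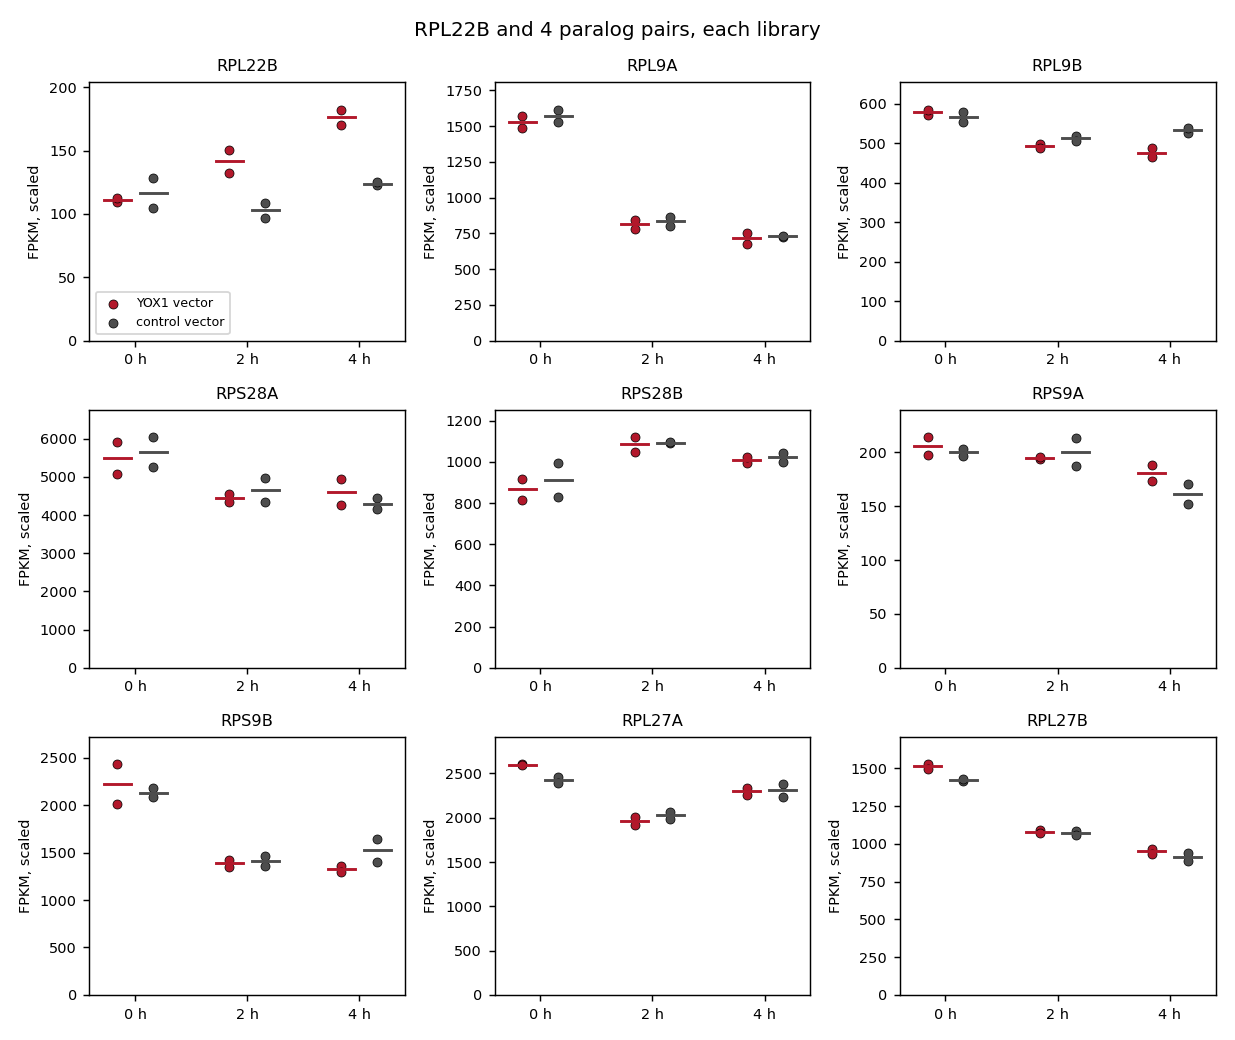
Scaled FPKM of RPL22B and of the paralogs of RPL9, RPS28, RPS9 and RPL27 in each library (points) with group means (bars), the YOX1 vector left of the control vector at each time, on axes starting at 0. RPL22B separates by vector at 2 h and 4 h, and RPL9A, RPS9B and RPL27B drop with both vectors while RPL9B and RPS9A change less.

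Other gene lists of the translation apparatus were read for comparison, and their genes were not members. Mitochondrial ribosomal protein genes were taken by name (MRPL or MRPS and a number), as were biogenesis factors (UTP, NOP or RRP and a number). Genes of these classes with other names are left out. Over 4 h, 27.0% of all genes tested fell and 26.4% rose with the YOX1 vector, and 26.0% fell and 25.1% rose with the control vector. Of 43 mitochondrial ribosomal protein genes, which supply a separate ribosome, 36 fell and 0 rose over 4 h with the YOX1 vector, and 38 fell and 0 rose with the control vector (median -0.53 for both). Of 53 ribosome biogenesis factors, which are often regulated together with ribosomal proteins, 26 rose and 4 fell with the YOX1 vector (median 0.25), and 35 rose and 2 fell with the control vector (median 0.35). Of 20 ribosome-bound and elongation factors, 15 fell and 2 rose over 4 h with the YOX1 vector, and 16 fell and 2 rose with the control vector. STM1, a ribosome-bound factor that preserves idle ribosomes, changed by -0.73 (SE 0.06) with the YOX1 vector and -0.62 (SE 0.06) with the control vector.

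Of 16 listed regulators of ribosomal protein genes, 4 fell and 3 rose over 4 h with the YOX1 vector, and 5 fell and 5 rose with the control vector. These shares were near those of all genes, given above. RAP1, the general DNA-binding factor at these promoters, changed by -1.04 (SE 0.06) with the YOX1 vector and -0.99 (SE 0.06) with the control vector. IFH1, the coactivator, averaged 48.5 ± 1.3 FPKM with the YOX1 vector and 66.2 ± 5.2 FPKM with the control vector at 4 h (SD, n = 2 each), and its increase over 4 h was 1.02 (SE 0.08) with the YOX1 vector and 1.41 (SE 0.08) with the control vector. IFH1 was the only listed regulator that passed between the vectors, with a log2 difference of -0.44 at 4 h (SE 0.08, limma adjusted p = 0.0193). The difference between its changes over 4 h was -0.39 (SE 0.12) and did not pass (limma adjusted p = 0.168). TOD6 and CRF1, which encode repressors acting on ribosome biogenesis and ribosomal protein genes, rose over 4 h by 1.20 and 0.90 with the YOX1 vector and by 1.14 and 0.84 with the control vector (SE 0.09 for all). DOT6, the paralog of TOD6 and likewise a repressor, changed the other way, by -0.47 with the YOX1 vector and -0.49 with the control vector (SE 0.07 for both), and HMO1, a high mobility group protein found at many of these promoters, by -0.55 and -0.49 (SE 0.05 for both), and all 4 values passed. With the control vector and not the YOX1 vector CKA1 and CKB1, which encode subunits of casein kinase 2, passed downward, and UTP22 and RRP7, its partners in a complex with Ifh1, passed upward, and no difference between the changes with the 2 vectors passed for these genes (lowest limma adjusted p = 0.261, UTP22). FHL1 passed downward with the YOX1 vector (-0.34, limma adjusted p = 0.00651) and not with the control vector (-0.20, limma adjusted p = 0.0587), and the difference between these changes did not pass (limma adjusted p = 0.561). Transcript levels say nothing of where these proteins are or whether they are active.

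RPP1, the ribonuclease P subunit, had 28.5 and 33.5 FPKM with the YOX1 vector and 36.1 and 34.6 FPKM with the control vector at 0 h, and 42.2 and 39.2 FPKM with the YOX1 vector and 38.6 and 40.4 FPKM with the control vector at 4 h. Its log2 change over 4 h was 0.39 (SE 0.08, limma adjusted p = 0.00473) with the YOX1 vector and 0.15 (SE 0.08, limma adjusted p = 0.152) with the control vector, unlike the ribosomal protein genes whose name it resembles.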

How the data were processed

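RNA was depleted of rRNA, sequenced without strand information as 50-base reads, and processed with TopHat2, Cufflinks and Cuffdiff against sacCer3 and the SGD annotation, per the labels and the study's methods. Versions are not given in the sources used here. The authors deposited one FPKM table per library, with confidence intervals and a status flag, and those FPKM values were used as deposited. Loci count from 0 in the files and are given from 1 here. RefSeq R64 gave identical coordinates for 6036 of 6048 matched genes, all 138 members included.

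Libraries were scaled by median ratio over 6585 genes above 0 in all libraries (factors 0.932 to 1.07). Tests used log2(scaled FPKM + 1), a pseudocount of 1, on the 6887 genes averaging 1 FPKM or more, in one limma fit (limma 3.58.1, R 4.3.3) of the 6 groups with an intensity trend, 6 residual degrees of freedom and 9 contrasts. Adjusted p-values are Benjamini-Hochberg over all 6887 genes, at 0.05, and fold changes on this scale understate low genes. The fit was tested on simulated data for the comparison of vectors at 4 h. Of 100 genes changed by 1 on the log2 scale 70 were recovered, and of 100 changed by 0.5 it was 56. Among 6687 unchanged genes 5 were called. Coding sequences were aligned with Biopython 1.88. The scale holds no counts, so depth is the value implied by intervals of 2 SD around the deposited FPKM. Only 43.5% of implied numbers under 30 came within 0.05 of a whole number, so no counts were recovered and no count test was run.

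Members, lists and tests were chosen with earlier results of these data known. Named genes are RPL39 with BUD19, the 3 most negative and 3 most positive members of each contrast, the 3 highest and lowest in untreated controls, the 5 pairs with the largest ratio and the 5 with the widest span, the P stalk and ubiquitin-fusion genes, and called list genes. Of 15 listed ribosomal protein chaperones and assembly genes 13 were in the files, and over 4 h 2 fell and 6 rose with the YOX1 vector and 2 fell and 5 rose with the control vector. Of 16 stress genes 8 fell and 7 rose with the YOX1 vector and 7 fell and 6 rose with the control vector. All 6 MATa markers fell with the YOX1 vector and 5 with the control vector over 4 h. Of all genes tested, 27.0% fell and 26.4% rose over these 4 h with the YOX1 vector. With the control vector 26.0% fell and 25.1% rose.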

Additional observations from a re-analysis of the deposited data

Results flagged for a closer look

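RPL39 passed the test of a difference between the vectors in the change over 2 h, but it was at 0 in the YOX1 vector libraries, so the value restates its control vector change and no difference in response is read from it. The difference of changes was 1.80 on the log2(FPKM + 1) scale (SE 0.27, limma adjusted p = 0.0329), with RPL39 at 0 or below 0.001 FPKM in all 4 YOX1 vector libraries and at 4.36 and 5.22 FPKM (2 h) against 20.0 and 18.2 FPKM (0 h) in the control vector libraries. The size depends on the pseudocount, at 1.98 with 0.1 and 0.98 with 10, and the values rest on no more than 3.20 implied fragments in a library. BUD19, which covers 96.2% of its coding bases, showed no such pattern in its own levels. The part that read assignment between these 2 names plays was not tested.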

How the results depend on the processing

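The median decrease over time held its direction under every scaling, pseudocount, filter and spread tried and without each library in turn, while some counts moved. With a filter at 10 FPKM, which removes RPL39, 0 genes were lower between vectors at 0 h, 2 h and 4 h and 0 higher in the difference of changes over 2 h. This last count was also 0 with a pseudocount of 0.1, quantile normalization, the replicate block and the spread of the contrast's libraries alone. That spread also gave 0 lower between vectors at 2 h, 0 higher at 4 h (RPL22B), and 69 lower and 0 higher over 2 h with the YOX1 vector. Without a filter 2 were lower between vectors at 4 h (RPL39 and RPL9B). Quantile normalization gave 76 lower over 2 h and 4 higher over 4 h with the YOX1 vector, and 1 higher over 2 h and 2 higher over 4 h with the control vector. The causes were not tested. The share of all genes called is not given for these settings or for fits without a single library. Changes in these counts therefore cannot be set against all genes. The median absolute A to B ratio was 0.59 over all 59 pairs and 0.51 over pairs without any overlap. Without scaling, the median of all genes shifted by -0.11 over 4 h with the control vector.

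Leaving out each library in turn gave 94 to 118 lower and 0 to 2 higher over 2 h, and 97 to 117 lower and 1 to 2 higher over 4 h with the YOX1 vector. It gave 84 to 98 lower and 0 to 1 higher over 2 h, and 96 to 103 lower and 0 to 1 higher over 4 h with the control vector. Between vectors 1 gene (RPL39) was lower each time and 0 higher at 4 h, the difference of changes over 2 h gave 0 to 1 higher, and the paralog ratio was 0.59 to 0.61.

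8 estimates that did not pass changed sign, under 13 alternatives in all. RPL36B between vectors at 0 h ranged from -0.13 to 0.87 and over 2 h with the control vector from -0.065 to 0.44. RPL22B ranged from -0.21 to 0.081 between vectors at 0 h and from -0.052 to 0.24 over 4 h with the control vector (-0.024 without scaling). RPS9A over 2 h with the control vector ranged from -0.092 to 0.090 (0.021 with quantile normalization), and RPL41B over 4 h with the control vector from -0.17 to 0.45. RPS27A with the YOX1 vector ranged from -0.023 to 0.12 over 2 h and from -0.011 to 0.13 over 4 h (-0.053 without scaling).

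The labels do not say what a replicate number marks. Deviations of same-numbered libraries correlated above 0.1 in 5 of 15 pairs of groups (-0.125 to 0.418), most among the control vector at 4 h and the YOX1 vector at 2 h and 4 h, so the numbers were not taken to pair the samples throughout. Beyond the count over 2 h given above a replicate block moved no count of calls by over 1.5 times. Having 2 libraries a group limits the precision, and RPL39, RPL43A, RPL22A and RPL36B rest on too few fragments to compare.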
